A study of Mus musculus with 6 samples.

Results

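Annotated retained-intron transcripts of the mouse prefrontal cortex are described here: rows of the transcript table that match a reference transcript exactly and whose annotated type is retained intron. They were chosen by annotation alone, without use of their values, and number 21847 of the 175010 transcripts in the table, in 9421 genes. RNA came from the prefrontal cortex of male C57BL/6 mice that entered the study at 5 weeks and were sampled at an age of 30 weeks. The control group (n = 3 samples) received water, 0 mg/kg of polystyrene nanoparticles (PS NPs). The PS_high group (n = 3 samples) received 50 mg/kg PS NPs by daily oral gavage over 6 months. PS NPs are small plastic particles. The labels list separate samples, and all p-values measure the spread between these samples. Whether each stands for 1 animal is not stated in the sources used here.

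A retained-intron transcript keeps at least 1 intron that the coding transcripts of its gene remove. Such RNAs make no full-length protein. Many stay in the nucleus, and those that reach ribosomes are often destroyed by nonsense-mediated decay, which removes RNAs with early stop codons. In neurons, some held introns are spliced on demand, and genes of splicing regulators use retained or poison sequence to control their own level. Total RNA freed of ribosomal RNA also holds unspliced precursors, and a read inside an intron does not tell a precursor from a finished retained-intron transcript.

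A retained-intron transcript can begin where the coding transcripts begin, or start inside the gene. Of 17367 such transcripts whose gene has a promoter window in RefSeq (GRCm38.p6, from 250 bases before to 50 bases after an annotated start), 26.0% started inside a window. Among annotated coding transcripts this was 58.3%, among nonsense-mediated decay transcripts 42.1% and among processed transcripts 25.8%. Windows are shown for 3 genes whose retained-intron transcripts start at the promoter and are described below, with the transcribed part of the window, from the annotated start, in capitals. The first 2 lines are the same window of Akap8l, read from the starts of 2 different retained-intron transcripts that lie 2 bases apart.
Akap8l ENSMUST00000236039, chr17:32350528-32350827, minus strand: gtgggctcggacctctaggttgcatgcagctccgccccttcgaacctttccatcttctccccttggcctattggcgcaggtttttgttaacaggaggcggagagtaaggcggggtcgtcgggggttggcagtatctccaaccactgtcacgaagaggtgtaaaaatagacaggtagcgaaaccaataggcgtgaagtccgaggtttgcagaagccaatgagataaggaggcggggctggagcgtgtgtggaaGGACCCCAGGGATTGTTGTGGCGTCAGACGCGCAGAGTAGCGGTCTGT
Akap8l ENSMUST00000236105, chr17:32350528-32350827, minus strand: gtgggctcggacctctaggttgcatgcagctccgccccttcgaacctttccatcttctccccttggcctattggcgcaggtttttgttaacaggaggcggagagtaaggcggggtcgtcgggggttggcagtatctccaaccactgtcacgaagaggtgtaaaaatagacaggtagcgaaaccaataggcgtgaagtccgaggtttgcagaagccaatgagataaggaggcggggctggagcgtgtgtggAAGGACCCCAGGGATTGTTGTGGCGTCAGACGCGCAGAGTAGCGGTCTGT
Ogt ENSMUST00000150161, chrX:101639968-101640267, plus strand: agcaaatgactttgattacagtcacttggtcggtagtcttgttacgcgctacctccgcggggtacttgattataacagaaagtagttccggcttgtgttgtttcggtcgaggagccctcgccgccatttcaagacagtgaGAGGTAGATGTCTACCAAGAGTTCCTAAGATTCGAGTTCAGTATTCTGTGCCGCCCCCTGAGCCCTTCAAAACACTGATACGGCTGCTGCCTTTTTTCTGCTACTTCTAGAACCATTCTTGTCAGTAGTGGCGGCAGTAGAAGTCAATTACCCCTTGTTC
Gria2 ENSMUST00000194383, chr3:80802786-80803085, minus strand: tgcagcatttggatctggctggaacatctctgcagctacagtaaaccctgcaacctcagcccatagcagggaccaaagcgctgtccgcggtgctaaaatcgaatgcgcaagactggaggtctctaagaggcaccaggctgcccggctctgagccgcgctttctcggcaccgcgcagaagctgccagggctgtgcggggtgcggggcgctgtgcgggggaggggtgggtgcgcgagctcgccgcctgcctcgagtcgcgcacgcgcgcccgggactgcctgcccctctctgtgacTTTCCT
The Gria2 transcript began 6 bases before the end of its window, while the Ogt transcript began 160 bases before the end.

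Many microRNA hairpins lie in introns. Of the 2334 retained-intron transcripts with a single exon, 6 contained a whole RefSeq hairpin. The 3 that were abundant enough to test are shown, with the mature microRNA sequences in capitals.
Mir6992 in Stx5a, chr19:8742971-8743079, plus strand: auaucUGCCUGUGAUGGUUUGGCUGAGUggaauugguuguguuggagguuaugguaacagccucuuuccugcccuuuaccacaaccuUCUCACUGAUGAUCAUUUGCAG
Mir760 in Gm17494, chr3:122293585-122293703, minus strand: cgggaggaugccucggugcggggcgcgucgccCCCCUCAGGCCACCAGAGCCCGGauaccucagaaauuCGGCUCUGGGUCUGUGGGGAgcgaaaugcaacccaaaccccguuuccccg
Mir8115 in P2rx7, chr5:122682597-122682715, plus strand: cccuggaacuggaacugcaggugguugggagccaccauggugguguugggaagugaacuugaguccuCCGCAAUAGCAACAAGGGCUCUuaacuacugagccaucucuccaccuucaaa
Stx5a encodes a SNARE protein of the Golgi, and P2rx7 an ATP-gated ion channel. The Stx5a transcript held 413, 106 and 207 estimated counts in controls and 261, 399 and 125 in PS_high. The Gm17494 transcript held 926, 884 and 20 in controls and 988, 545 and 36 in PS_high. Control 3 and PS_high 3 were thus far below the other 4 libraries, and the groups overlapped. The P2rx7 transcript held 74, 45 and 131 in controls and 138, 142 and 106 in PS_high, again with overlap. The host transcripts in Wwp2, Lat and Hoxa9 lay below the level needed for a test, with Hoxa9 at 0 counts in all 6 libraries.

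The whole table held 53344395 to 66004386 estimated counts per library. Rows inside introns, which are assembled fragments and no annotated transcripts, took 19.0%, 18.0% and 15.0% of all counts in controls and 19.1%, 16.4% and 15.3% in PS_high. Markers of excitatory neurons summed to 170 to 235 FPKM in controls and 201 to 241 in PS_high, with 7 of 7 found. FPKM is a level per length: fragments per kilobase of transcript, scaled to the size of the library. The 7 choroid plexus and ependyma markers, of which none was at 0 in all libraries, summed to 19.6, 201 and 135 FPKM in controls and 22.0, 494 and 311 in PS_high. The part of these markers in the results was not tested. In bulk tissue, fewer cells of a type and less RNA per cell cannot be told apart. On the retained-intron transcripts alone, PS_high 1 stood apart on the first principal component, with a score of 63.8 against -25.3 to -1.5 for the others.

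As a class, retained-intron transcripts differed between the groups by less than the spread between replicates in their share of annotated counts. They took 10.625%, 10.881% and 9.865% of annotated counts in controls and 10.929%, 10.003% and 9.719% in PS_high. The mean was 10.5% ± 0.528 in controls and 10.2% ± 0.632 in PS_high (SD, n = 3 each), a difference of -0.24 percentage points (two-sided exact permutation test p = 0.8, adjusted p = 1.0 over 4 types; 3 against 3 samples cannot go below 0.1). The groups overlapped, and the control library with the lowest share, control 3, also had the lowest share of counts inside introns among controls. Nonsense-mediated decay transcripts took 1.58% ± 0.0368 and 1.51% ± 0.0861, and processed transcripts 2.0% ± 0.0855 and 1.94% ± 0.138.

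The number of retained-intron transcripts detected also overlapped. At 0.5 FPKM or more there were 9982, 10491 and 10303 in controls and 9481, 10402 and 10022 in PS_high, a mean difference of -290.3 (two-sided exact permutation p = 0.5). It was -46.7 without PS_high 1 and -507.2 without PS_high 2. PS_high 1 had the fewest and control 2 the most.

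**Figure D1:**
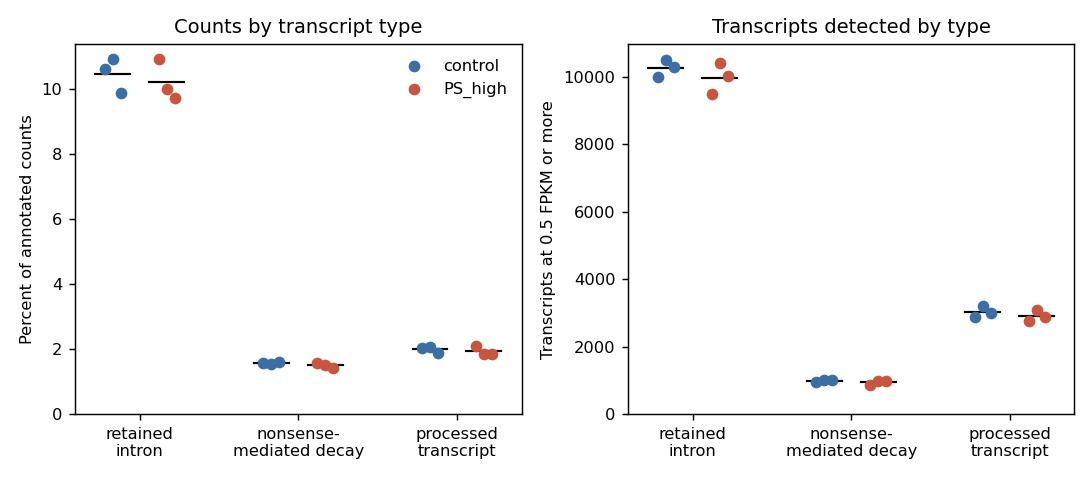
Percent of annotated counts (left) and number of transcripts at 0.5 FPKM or more (right) for 3 annotated types. Each point is 1 library, blue for control and red for PS_high, and the black line is the mean of 3. Retained-intron transcripts take about 10% of annotated counts in every library, far above the other 2 types shown, and the groups overlap.

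Most retained-intron transcripts were rare, but few were wholly absent. No count was found in any library for 2062 of the 21847 (9.44%), against 41.8% of nonsense-mediated decay, 35.0% of processed and 36.9% of coding transcripts. An average level of 0.5 FPKM or more, the minimum set for a test, was reached by 10705 (49.0%) in 5633 genes. This compares with 14.9% of nonsense-mediated decay, 19.4% of processed and 28.2% of coding transcripts. Their length ran from 125 to 19300 bases with a median of 881, and the median was 3 exons.

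The levels were low and the tail was long. The median of the tested retained-intron transcripts was 1.27 FPKM and the 90th percentile 3.83, against a median of 1.82 and a 90th percentile of 10.3 for tested coding transcripts. At least 5 FPKM was reached by 649, at least 10 FPKM by 153 and at least 50 FPKM by 7. The 1000 with the highest counts held 44.3% of all retained-intron counts.

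Estimated counts divide reads among overlapping transcripts, so a row can be filled in 1 library and empty in another. A row was said to switch when it had at least 100 counts in 1 library and 0 in another library of the same group. Of 8823 retained-intron rows with 100 counts in some library, 742 (8.41%) switched, against 39.4% of nonsense-mediated decay, 17.8% of processed and 29.3% of coding rows. The median coefficient of variation among controls was 30.1% for tested retained-intron transcripts, 57.2% for nonsense-mediated decay, 33.6% for processed and 36.6% for coding ones. These are descriptions over rows that share libraries, with no test.

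Switching went with the ends of the transcript. In 12466 retained-intron transcripts neither end lay within 50 bases of an end of a coding transcript of the gene, and 5.41% of those with enough counts switched. Where both ends matched (947 transcripts) 15.6% switched, where only the first end matched (5775) 10.7%, and where only the last end matched (2232) 12.1%. A further 427 lay in genes with no coding row. The share of the gene's annotated counts followed the same order, with a median of 33.8% where both ends matched, 11.9% for the first end, 16.8% for the last end and 6.23% for neither. Transcripts with both ends matched were also the longest, with a median of 2704 bases against 752 for those with neither.

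**Figure D2:**
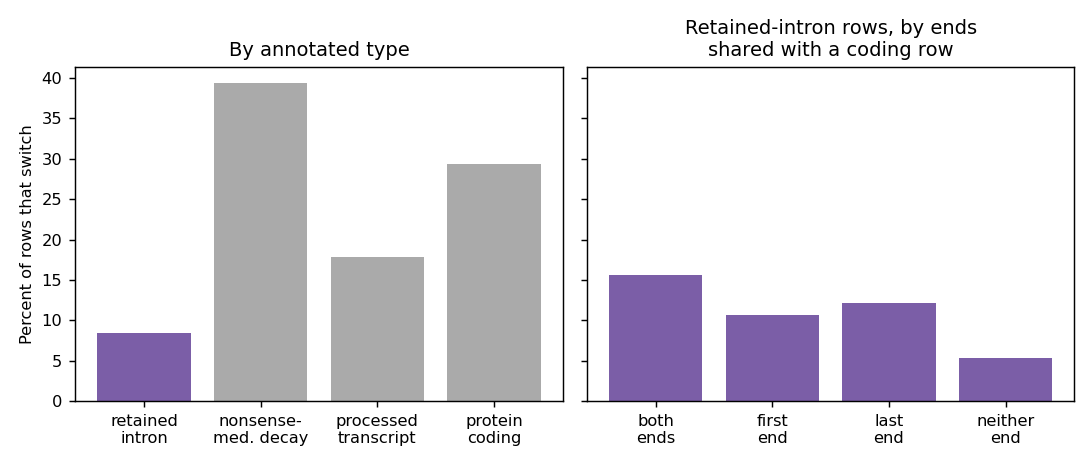
Percent of rows with at least 100 counts in 1 library and 0 in another library of the same group, by annotated type (left) and, for retained-intron rows, by which ends lie within 50 bases of an end of a coding row (right). Retained-intron rows switch least of the 4 types, and those that share neither end switch in 5.41%.

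The 8 most abundant retained-intron transcripts lay in Uchl1, Eno2, Rps16, Atp5f1, Aplp2, Prkcb, Cox4i1 and Ptms. Uchl1 encodes a neuronal ubiquitin hydrolase, and its transcript ENSMUST00000176015 (chr5:66676892-66687229) averaged 143 FPKM. It measured 115, 128 and 191 FPKM in controls and 113, 168 and 144 in PS_high. Eno2 encodes neuron-specific enolase, and ENSMUST00000125436 (chr6:124760365-124768337) measured 90.2, 88.3 and 117 FPKM in controls and 86.4, 106 and 106 in PS_high. Both sets of libraries overlapped.

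In these genes the retained-intron row held most of the annotated counts. For Eno2 the share was 88.8% to 93.9% over the 6 libraries. For Uchl1 it was 65.4% to 99.9%, with the lowest value in PS_high 3. Aplp2, a relative of the amyloid precursor protein, averaged 64.1 FPKM in ENSMUST00000216921 with a share of 66.2% to 83.0%, or 50.5% to 53.9% of all rows of the gene. Rps16, a ribosomal protein whose gene has processed copies that can share reads, averaged 88.4 FPKM with a share of 72.5% to 91.6%. In these 4 genes the deposited estimates thus placed most annotated counts on a row typed as retained intron.

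The mitochondrial genes gave lower shares. Atp5f1, a subunit of ATP synthase, averaged 66.5 FPKM with 34.9% to 55.9% of the gene, and Cox4i1, a subunit of cytochrome c oxidase, 53.6 FPKM with 42.1% to 64.8%. Transcripts of Prkcb and Ptms varied far more among libraries of the same group. Prkcb encodes protein kinase C beta, and its single-exon transcript ENSMUST00000206495 held 1200, 295 and 9580 counts in controls and 289, 7481 and 6706 in PS_high. Control 3, PS_high 2 and PS_high 3 were high and the other 3 libraries low. Ptms encodes parathymosin, a small acidic protein, and ENSMUST00000181150 measured 14.1, 72.2 and 94.9 FPKM in controls and 39.7, 40.5 and 14.9 in PS_high, with 1 low library in each group.

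Shares of the gene could be compared over the 9105 tested transcripts in genes with a mean of at least 500 annotated counts. The median share was 8.45%, with quartiles of 3.38% and 20.1%. A mean share of at least 50% was found for 554, and 215 held at least 50% in all 6 libraries. In at least 1 library 1444 reached 50%. At the other end, 1991 stayed under 5% in all 6.

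The 8 transcripts with the highest mean share lay in Mplkip, Fbxo33, Pcdhgb5, Gapdh, Emc8, Cluh, Daam2 and Dph7, with means of 96.5% to 100%. Gapdh, the glycolytic enzyme gene that has many pseudogene copies, shows what such a share rests on. Its single-exon transcript ENSMUST00000192506 held 645, 497 and 759 counts in controls and 1490, 1203 and 748 in PS_high. All other annotated rows of Gapdh together held 0 to 7 counts per library, so the message of this abundant gene was not counted under its own rows and the share is uncertain. Cluh, which binds messages of mitochondrial proteins, had a share of 90.4% to 100% in ENSMUST00000155558, which has 24 exons. Each of its ends lay within 50 bases of an end of a coding transcript of the gene.

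The share also depends on assembled rows that match no reference transcript exactly, some of which lie inside introns. With these rows in the denominator the median share over the 9105 transcripts was 4.39%, and 201 had a mean share of at least 50%. Emc8, a subunit of a membrane insertion complex, had a share of 95.2% to 100% among annotated rows. Of all rows of the gene, the same transcript held 12.7%, 65.9% and 84.9% in controls and 7.56%, 3.31% and 43.0% in PS_high. Fbxo33, a ubiquitin ligase subunit, went from 99.3% to 99.9% of annotated rows to 23.5% to 50.1% of all rows. For Mplkip, Pcdhgb5 and Gapdh all rows gave 85.7% or more in every library.

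Genes of splicing regulators held some of the higher levels. SR proteins and their partners bind exons and recruit the splicing machinery, and 64 retained-intron transcripts in 24 of 33 such genes were tested, with a median of 2.58 FPKM and a median share of 10.4%. Arglu1, an RNA-binding coactivator whose own retained intron is known to control it, had ENSMUST00000208252 at 23.8 to 36.6 FPKM with a share of 71.1% to 88.0%. Rbm25 had a single-exon transcript at 8.49 to 12.5 FPKM. Srsf3, an SR protein that also acts in RNA export, had ENSMUST00000150157 at 10.8 to 20.8 FPKM with a share of 25.0% to 51.2%. Rsrp1 varied most of these 4, from 5.72 to 26.8 FPKM, with control 3 highest.

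The kinases that phosphorylate SR proteins were lower. In the list of Cdc2-like, DYRK and SR protein kinases 19 transcripts in 7 of 12 genes were tested, with a median of 1.99 FPKM. Dyrk1a, a kinase with a dose-dependent role in brain growth, had ENSMUST00000134383 at 8.71 to 11.4 FPKM with a share of 89.5% to 98.0% of annotated rows and 16.9% to 21.8% of all rows. Srpk2 lay at 4.49 to 6.36 FPKM with 6.01% to 19.8% of its gene. Clk4, known for introns that are held in the nucleus, lay at 2.89 to 5.43 FPKM and 10.1% to 22.7%. In Clk3 the level ran from 0.411 to 9.48 FPKM, with 13, 207 and 84 counts in controls and 77, 233 and 32 in PS_high.

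Among hnRNP and other RNA-binding proteins, 71 transcripts in 28 of 41 genes were tested, with a median of 2.12 FPKM and a median share of 8.19%. Hnrnpa2b1, which sorts and exports RNA, had 1 of the steadiest named transcripts: ENSMUST00000204885 lay at 9.78 to 12.4 FPKM with a share of 33.0% to 41.5%. Hnrnpu, a nuclear scaffold protein, lay at 19.3 to 28.9 FPKM with 9.81% to 13.4%, and Hnrnpk at 15.6 to 24.0 FPKM with 7.47% to 9.85%. Celf2, a splicing regulator of neurons, lay at 12.0 to 18.0 FPKM with 14.2%, 11.1% and 9.96% in controls and 17.6%, 15.5% and 14.4% in PS_high. Over all rows of the gene the Celf2 transcript held 1.4% to 1.54%. Hnrnpa2b1 held 14.3% to 18.3% of all rows, Hnrnpu 5.1% to 7.98% and Hnrnpk 6.73% to 8.41%.

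Introns that answer to nutrients are a known case of regulated retention. Ogt adds N-acetylglucosamine to proteins and Mgea5 removes it, and in both the retained intron is known to respond to the level of this sugar mark. Ogt ENSMUST00000150161, whose promoter window is shown above, held 4645, 4385 and 4595 counts in controls and 7557, 3656 and 4066 in PS_high. Its share was 53.2%, 63.3% and 54.7% in controls and 79.4%, 56.2% and 45.9% in PS_high, with PS_high 1 alone above all controls. Mgea5 ENSMUST00000235865 ran from 32.1% to 73.8% of its gene. Sat1, which breaks down polyamines, gave a share of 55.3% to 70.0%, and Mat2a, which makes S-adenosylmethionine, 3.93% to 9.33%. Over all rows of the gene the shares were 13.7% to 30.2% for Ogt, 7.03% to 16.7% for Mgea5 and 3.03% to 4.44% for Mat2a, and the same 55.3% to 70.0% for Sat1. In this list 11 transcripts in 5 of 6 genes were tested.

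Factors of nonsense-mediated decay and of the exon junction complex had the highest median share of the 9 lists, 23.8%, over 21 tested transcripts in 9 of 15 genes. Smg5, a decay factor, had ENSMUST00000192057 at 4.34 to 5.5 FPKM with a share of 44.2% to 71.1%. Smg9 gave 36.4% to 61.7% of annotated rows and 12.2% to 19.4% of all rows. Rnps1, a peripheral exon junction protein, held 700, 881 and 1031 counts in controls and 839, 702 and 22 in PS_high, so PS_high 3 alone was low.

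In synaptic genes the retained-intron share was small, though not in these alone. For 30 transcripts in 15 of 26 presynaptic genes the median share was 1.75%, and for 27 transcripts in 13 of 25 postsynaptic genes 1.51%, against 10.3% over all retained-intron transcripts tested. It was 1.89% for motors, cytoskeleton and actin branching, 0.535% for astrocyte markers and 1.19% for oligodendrocyte markers. The other function lists lay at 6.21% to 23.8%, and the other tested marker lists at 0.596% to 40.2%. Syt1, the calcium sensor of vesicle release, had ENSMUST00000147593 at 8.14 to 12.8 FPKM but with only 1.42% to 2.66% of the gene. Slc17a7, the vesicular glutamate transporter of excitatory neurons, gave 8.58 to 12.4 FPKM and 5.06% to 17.5%. Snap25, a SNARE protein, gave a share from 14.5% to 91.5% while its own level only ran from 8.03 to 13.9 FPKM. Of all rows of Snap25 the same transcript held 13.1%, 13.1% and 10.6% in controls and 7.02%, 4.44% and 3.46% in PS_high. On that denominator the groups did not overlap and PS_high was lower (log2 -1.3, edgeR adjusted p = 1.0), while the log2 difference of the annotated share was 0.46 (-0.53 to 1.45 without single libraries). The transcript's own counts overlapped, at 5292, 3729 and 3709 in controls and 4761, 2476 and 3101 in PS_high. All rows of Snap25 together held 40372, 28555 and 34892 counts in controls and 67775, 55705 and 89728 in PS_high, so the denominator was apart.

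Named transcripts of the postsynaptic list lay in glutamate receptors and their kinase. Gria2, the AMPA receptor subunit that sets calcium permeability, had ENSMUST00000194383 at 18.6 to 32.1 FPKM, with 13 exons and the promoter shown above. Its share was 41.3%, 42.6% and 40.2% in controls and 28.8%, 41.1% and 38.7% in PS_high, with PS_high 1 lowest. Gria3 ENSMUST00000148212 held 2601, 2408 and 241 counts in controls and 3742, 2458 and 3795 in PS_high. Control 3 alone was low, and its share there was 3.35% against 38.1% or more elsewhere. Camk2a, the main postsynaptic kinase, and Grm5, a metabotropic glutamate receptor, gave shares of 5.25% to 46.2% and 10.7% to 71.3%. Over all rows of the gene these shares were lower, at 6.01% to 11.8% for Gria2, 0.71% to 13.4% for Gria3, 1.8% to 5.88% for Camk2a and 2.16% to 4.85% for Grm5.

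Ion channels and the cytoskeleton followed the same pattern of steady and unsteady rows. Among 31 tested transcripts in 14 of 25 channel genes the median share was 7.21%. Kcnq3, a subunit of the M-current channel, lay at 8.56 to 11.6 FPKM with 49.5% to 73.7% of annotated rows and 2.85% to 3.54% of all rows. Scn2a, a sodium channel, lay at 10.6 to 17.6 FPKM with 2.97% to 6.07% of annotated rows. Cacna1e, a calcium channel, gave a share of 32.0% to 63.4% of annotated rows and 3.85% to 6.66% of all rows. Among 32 transcripts in 14 of 24 genes of motors, cytoskeleton and actin branching, Arpc1a, an Arp2/3 subunit, gave a share of 23.7% to 28.8%. Kif1b, a kinesin, held 3719, 2096 and 3824 counts in controls and 1431, 14808 and 2326 in PS_high, where 1 library, PS_high 2, held most of the counts.

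The 5 steadiest transcripts of at least 5 FPKM lay in Vezt, Ccl25, Cdh2, Ahcyl1 and Ppid, with coefficients of variation of 5.93% to 6.6% over the 6 libraries. Vezt encodes an adherens junction protein, and ENSMUST00000132735 measured 6.31, 6.43 and 5.62 FPKM in controls and 6.0, 5.5 and 5.37 in PS_high. Cdh2, neuronal cadherin, measured 9.1, 9.02 and 9.04 FPKM in controls and 9.19, 7.7 and 8.24 in PS_high. The Cdh2 share ran from 64.6% to 98.1% of annotated rows and from 8.2% to 11.1% of all rows.

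The first comparison asked whether single retained-intron transcripts differed after PS NP exposure. None of 10705 passed the quasi-likelihood test of edgeR at an adjusted p of 0.05, where 3 of 69333 rows of the whole table did (0.00433%). At an unadjusted p under 0.05 there were 356 (3.33%; 175 higher and 181 lower in PS_high), against 3.58% of all rows tested. The groups did not overlap in depth-scaled counts (CPM, counts scaled to the library size) for 981 (9.16%), against 8.16% of all rows. Both shares of retained-intron transcripts thus lay near those of the table. The median log2 difference was -0.03, against -0.01 over all rows. With 3 libraries a group, a p that misses the threshold does not show that a transcript was unchanged. On data simulated at the spread of all 69333 tested rows of the table, the same edgeR fit recovered 0% of planted changes, even at 256-fold. The changes were planted across the whole table, so recovery among retained-intron transcripts alone was not measured.

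The answer depends on the tool. DESeq2 called 124 (63 higher, 61 lower; 1.16% against 1.41% of all rows). limma on log2(FPKM + 0.1) called 1 (0.0317% of all rows were called), and on log2(FPKM + 1) it called 2 (0.0288% of all rows).

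The named differences were chosen by the size of their fold change or by p. The choice by fold change took only transcripts whose groups did not overlap, so the lack of overlap is no result. Of the transcripts so chosen and given below, DESeq2 called all but Tuba1c (DESeq2 adjusted p = 0.0623) and Myl6, Brwd1 and Synj2, for which it gave no p. None of the named differences passed the edgeR fit of transcript counts, and they are given as values. Shank3, a scaffold of excitatory synapses, had ENSMUST00000135214 (chr15:89500123-89503421) at 3, 10 and 7 counts in controls and 277, 178 and 187 in PS_high. All PS_high libraries lay above all controls, as the choice required. The log2 difference was 5.1 (SE 0.55, edgeR adjusted p = 0.248, DESeq2 adjusted p = 3.02e-26). Cntn2, an axonal adhesion protein, had ENSMUST00000186487 at 13, 13 and 2 counts in controls and 1126, 1311 and 1541 in PS_high, a log2 difference of 7.27 (SE 0.89, edgeR adjusted p = 0.306). This transcript has 22 exons, and each of its ends lay within 50 bases of an end of a coding transcript of the gene. The annotated rows of Cntn2 together held 180, 3745 and 5121 counts in controls and 1255, 1606 and 1638 in PS_high. All rows held 2864, 3975 and 5442 in controls and 3270, 3550 and 2827 in PS_high, with overlap. Reads of shared sequence can be placed on other rows, and the part of this in the difference was not tested.

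Several named transcripts were at 0 in a whole group. Akap8l encodes a nuclear protein that binds A-kinase and RNA. Its ENSMUST00000236039 held no count in any control and 157, 567 and 801 in PS_high, at least 551-fold higher against a floor of 3 counts over the group (edgeR adjusted p = 0.674). Its second transcript, ENSMUST00000236105, which starts 2 bases away and ends at the same base, held 605, 1131 and 936 counts in controls and 150, 167 and 177 in PS_high. The groups were apart in opposite directions in this pair, and reads from sequence they share can be placed on either. Fdx1l, a mitochondrial ferredoxin gene, had ENSMUST00000217150 at 0 counts in each control and at 47, 91 and 69 in PS_high, which is at least 74.7-fold higher (edgeR adjusted p = 0.467).

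Other named transcripts were lower in PS_high. Mrpl33, a mitochondrial ribosomal protein, held 37, 68 and 166 counts in controls and none in PS_high, which is at least 83.4-fold lower (edgeR adjusted p = 0.941). Ccdc186, a protein of dense-core vesicle formation, held 93, 59 and 116 counts in controls and 6, 5 and 1 in PS_high, a log2 difference of -4.3 (SE 0.67, edgeR adjusted p = 0.515). The groups did not overlap in either of these, as the choice required.

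Other named transcripts rest on 1 or 2 libraries. Myl6, a myosin light chain, held 0, 1 and 0 counts in controls and 330, 3 and 4 in PS_high. Brwd1 held 1 count in each control and 2, 3 and 544 in PS_high, and Phka2 18, 1 and 21 in controls and 24, 621 and 616 in PS_high. Synj2 held 105, 1452 and 91 counts in controls and 19, 31 and 12 in PS_high, and Kmt2e 48, 80 and 701 in controls and 29, 9 and 16 in PS_high. In each of these the groups did not overlap, as the choice required, yet 1 or 2 libraries carried the mean. Cd2ap held 30, 0 and 0 counts in controls and 1239, 672 and 465 in PS_high, a log2 difference of 6.41, where control 1 alone of the controls held any. BC030499 held 142, 20 and 145 counts in controls and 6, 5 and 4 in PS_high (log2 -4.17). Arrb2 held 21, 66 and 50 in controls and 0, 1 and 7 in PS_high (log2 -3.9, and -6.04 without PS_high 3). Tuba1c held 190, 74 and 49 in controls and 0, 4 and 16 in PS_high (log2 -3.79, and -5.41 without PS_high 3). The edgeR adjusted p-values of these 4 were 0.987 to 1.0.

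By function of the host gene, no list held a transcript that passed the edgeR fit of transcript counts. The second comparison, described below, called 2 transcripts of the motors, cytoskeleton and actin branching list higher, and none of any other list. Median log2 differences were -0.02 for SR proteins, 0.09 for their kinases, 0.09 for hnRNP and other RNA-binding proteins, -0.03 for nutrient sensors and -0.1 for decay factors. They were -0.06 for presynaptic genes, 0.07 for postsynaptic genes, -0.01 for channels and 0.15 for motors and cytoskeleton, against -0.03 for all retained-intron transcripts. At an unadjusted p under 0.05, against 3.33% of all retained-intron transcripts, SR proteins had 1 of 64 higher, their kinases 1 of 19 higher, and the hnRNP list 2 higher and 3 lower of 71. Decay factors had 1 of 21 higher, postsynaptic genes 1 of 27 higher, channels 1 higher and 1 lower of 31, and motors and cytoskeleton 3 of 32 higher. These 3 include the Actr3 transcript, named in an earlier analysis of these data, and the lists were chosen with such results known. Nutrient sensors had 0 of 11 and presynaptic genes 0 of 30. Of cell type markers, all 4 tested transcripts of endothelial and mural genes, which lay in 2 of 8 genes, had values above 0. Their median was 1.15 and their median level 0.876 FPKM, none passing. Values above 0 were found for 7 of 10 astrocyte (median 0.25), 1 of 4 oligodendrocyte (-0.43) and 1 of 4 excitatory neuron transcripts (-0.17). They were also found for 2 of 2 choroid plexus and ependyma, 1 of 1 blood and 1 of 2 inhibitory neuron transcripts. The summed FPKM of the 8 endothelial and mural markers, of which all were found, was 38.0 to 42.3 in controls and 33.5 to 49.1 in PS_high.

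**Figure D3:**
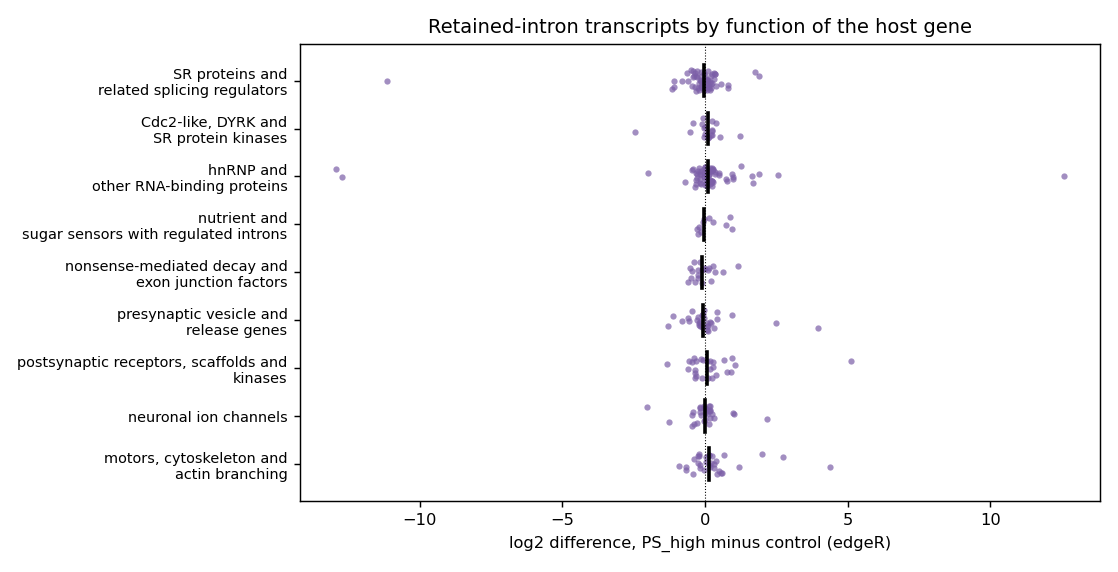
The log2 difference of each tested retained-intron transcript (PS_high minus control, edgeR), by function of the host gene. Each point is 1 transcript and the black bar is the median of the list. Medians lie between -0.1 and 0.15, and none of the points passes the adjusted threshold.

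The second comparison asked whether a retained-intron transcript changed relative to its own gene. The gene's annotated counts entered the edgeR model as an offset, and 10697 transcripts were tested. Those in Kif5b, Actr3 and Hp1bp3 rose (3, or 0.028%, against 0.029% of 31021 annotated rows called in either direction and 0.0161% called higher) and none fell. At an unadjusted p under 0.05 there were 525 (4.91%; 242 higher and 283 lower), against 4.13% of annotated rows. Shares did not overlap between the groups for 1086 (10.2%), against 9.52%.

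Actr3 encodes a core subunit of the Arp2/3 complex, which starts branches on actin filaments. Its ENSMUST00000186008 (chr1:125393484-125397612, 4 exons, 978 bases) held 214, 135 and 207 counts in controls and 3984, 2941 and 3725 in PS_high. Its share of the gene was 4.21%, 2.79% and 3.93% in controls and 52.4%, 50.8% and 52.1% in PS_high. All 3 PS_high libraries lay far above all controls. The share rose by 3.83 on the log2 scale (SE 0.19, edgeR adjusted p = 0.0394). Its counts alone gave a log2 difference of 4.39 (SE 0.28, edgeR adjusted p = 0.129; DESeq2 1.56e-71; limma on log2(FPKM + 0.1) 0.00399).

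The coding rows of Actr3 differed between the groups as well, while its other retained-intron rows overlapped. All rows of Actr3 together held 5089, 4846 and 5272 counts in controls and 7608, 5792 and 7149 in PS_high. Its other retained-intron transcripts together held 946, 951 and 790 counts in controls and 890, 713 and 699 in PS_high. The coding rows together held 3929, 3760 and 4275 counts in controls and 2734, 2138 and 2725 in PS_high. Among them the 12-exon ENSMUST00000178474 held 3906, 3745 and 4251 counts in controls and 0 in all PS_high libraries, while the 13-exon ENSMUST00000027579 held 1, 1 and 2 in controls and 2720, 2128 and 2717 in PS_high. Coding counts thus sat on a different row in each group, and both coding rows span the retained-intron transcript. Reads of the 978 bases can be divided differently when the coding row changes, and the part of this in the share was not tested.

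Kif5b encodes a heavy chain of kinesin-1, a motor that carries cargo along axons and dendrites. Its ENSMUST00000168031 (chr18:6203089-6214540, 9 exons) held 129, 123 and 120 counts in controls and 929, 453 and 936 in PS_high. Its share was 0.793%, 0.944% and 0.935% in controls and 38.3%, 39.9% and 46.3% in PS_high. No library overlapped, and the share rose by 5.54 on the log2 scale (SE 0.16, edgeR adjusted p = 0.0125), the smallest adjusted p of the retained-intron transcripts. Its counts alone gave 2.75 (SE 0.33, edgeR adjusted p = 0.305).

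Much of the share came from the denominator. The coding row of Kif5b held 15741, 12513 and 12372 counts in controls and 14, 0 and 550 in PS_high. An assembled transcript with the same 26 exons in number, MSTRG.17969.1, held 1301, 780 and 1336 in controls and 9190, 6235 and 12836 in PS_high. With all rows of the gene as the denominator, the share was 0.735%, 0.89% and 0.847% in controls and 8.0%, 6.15% and 6.3% in PS_high, a rise of 3.05 on the log2 scale (SE 0.18, edgeR adjusted p = 0.0487). A second transcript, ENSMUST00000164426, held 196, 229 and 143 counts in controls and 1225, 528 and 342 in PS_high, while another at the start of the gene, ENSMUST00000234166, held 188, 164 and 202 and then 233, 151 and 175. The last of these overlapped between groups in counts, and its share over all rows gave a log2 difference of 0.51 (edgeR adjusted p = 1.0).

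Hp1bp3 encodes a chromatin protein related to linker histones. Its ENSMUST00000154581 (chr4:138217268-138229744, 6 exons, 3444 bases) held 729, 708 and 664 counts in controls and 1552, 1164 and 1288 in PS_high. Its share was 5.8%, 5.77% and 4.66% in controls and 32.3%, 28.0% and 28.2% in PS_high. The groups did not overlap, and the share rose by 2.45 on the log2 scale (SE 0.13, edgeR adjusted p = 0.0449). Its counts alone gave 1.06 (SE 0.2, edgeR adjusted p = 0.741). The coding rows together held 11744, 11434 and 13400 counts in controls and 2556, 2698 and 3107 in PS_high. The share difference thus held both higher retained-intron counts and lower coding counts in PS_high.

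**Figure D4:**
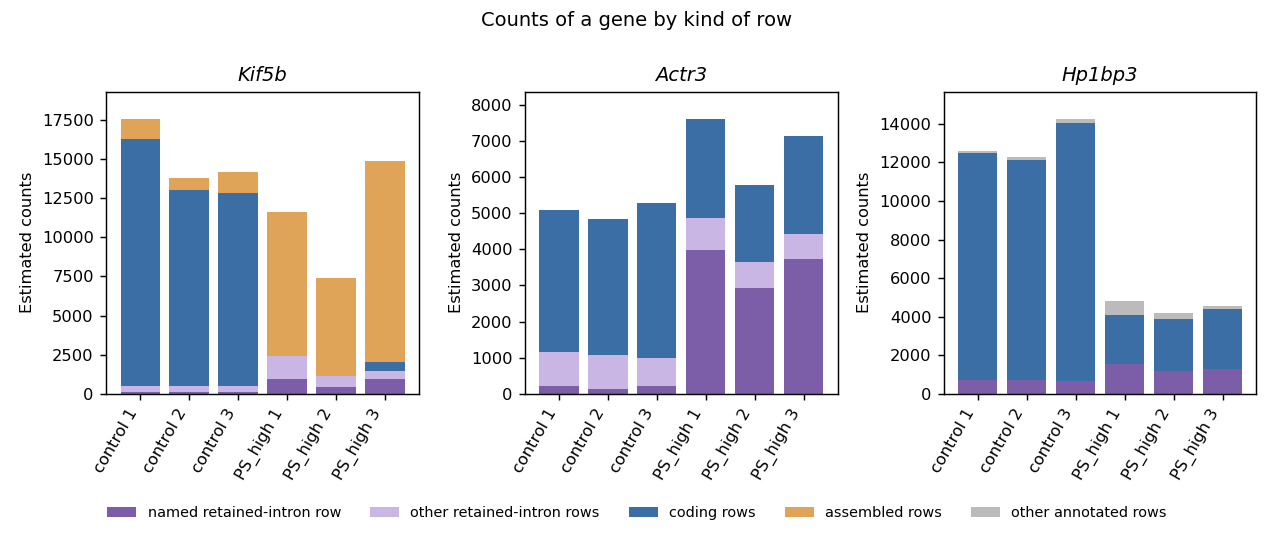
Estimated counts of Kif5b, Actr3 and Hp1bp3 in each library, stacked by kind of row: the named retained-intron transcript, other retained-intron rows, coding rows, assembled rows and other annotated rows. In Kif5b the counts sit on the coding row in controls and on the assembled row in PS_high, in Actr3 the named row holds 2941 to 3984 counts in PS_high, and in Hp1bp3 the coding rows hold 2556 to 3107 counts in PS_high against 11434 to 13400 in control.

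These calls were close to the threshold. With limma on the log2 share of FPKM, Kif5b was called (log2 3.79, adjusted p = 0.0472), while Actr3 (adjusted p = 0.082) and Hp1bp3 (log2 1.42, adjusted p = 0.64) were not. With no FPKM filter, edgeR called Kif5b (adjusted p = 0.0202) but neither Actr3 (0.0539) nor Hp1bp3 (0.0647). Without PS_high 1, the library that stands apart, Kif5b was still called (edgeR adjusted p = 0.0435), while Actr3 and Hp1bp3 were both at 0.0981. Over the 6 fits that leave out 1 library, Kif5b ran from 0.0347 to 0.0823 and failed without control 1, control 2 or control 3, Actr3 ran from 0.0129 to 0.141 and held only without control 2, and Hp1bp3 ran from 0.0881 to 0.179 and failed in all 6.

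The next smallest p-values of the share fit did not pass and are given as values. Taok2, a kinase of spine development, had ENSMUST00000156273 at 10.2%, 9.68% and 7.8% of its gene in controls and 53.8%, 79.9% and 55.1% in PS_high (edgeR adjusted p = 0.121). Its counts were 253, 240 and 250 in controls and 204, 242 and 178 in PS_high, so the retained-intron row itself overlapped between groups. Over all rows of the gene its log2 difference was 0.05 (edgeR adjusted p = 1.0).

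Lower shares showed both kinds. For Akap8l ENSMUST00000236105 the share was 55.2%, 70.3% and 59.3% in controls and 14.7%, 13.0% and 11.0% in PS_high, a log2 difference of -2.26 (SE 0.17, edgeR adjusted p = 0.105), and its counts were lower too. Grip1, which anchors AMPA receptors, had ENSMUST00000139352 at 788, 945 and 666 counts in controls and 138, 99 and 206 in PS_high, with shares of 74.9%, 68.6% and 69.9% and of 20.6%, 11.9% and 22.2% (edgeR adjusted p = 0.363). In these 2 the counts and the share were both apart between groups. Over all rows of the gene, Grip1 ENSMUST00000139352 held only 1.34% to 1.45% in controls and 0.213% to 0.376% in PS_high. Akap8l ENSMUST00000236105 held 12.1% to 18.9% of all rows in controls and 2.83% to 3.9% in PS_high.

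In Exoc5 and Arhgap29 only the share was apart. Exoc5, a subunit of the exocyst, had ENSMUST00000160723 at 71.9%, 70.1% and 64.0% in controls and 27.6%, 21.2% and 27.0% in PS_high (edgeR adjusted p = 0.121), with counts of 1898, 1454 and 1917 and of 1603, 1164 and 1186. Arhgap29, a regulator of small GTPases, had ENSMUST00000198594 at 39.0%, 35.3% and 37.8% in controls and 6.33%, 8.98% and 12.1% in PS_high (edgeR adjusted p = 0.363), with counts that overlapped. Over all rows, the log2 difference of the Arhgap29 share was 0.05 and that of Exoc5 -0.62.

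**Figure D5:**
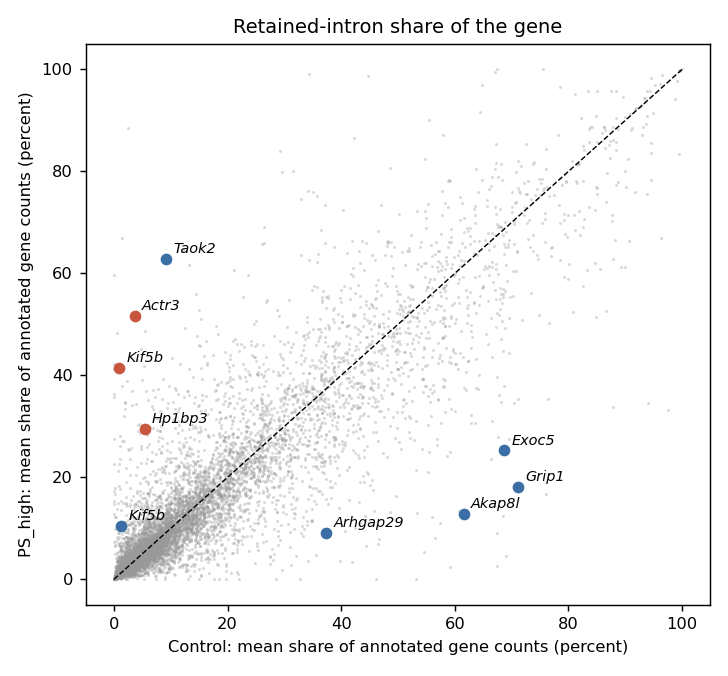
Mean share of annotated gene counts in control (horizontal, percent) and in PS_high (vertical, percent) for tested retained-intron transcripts in genes with a mean of at least 500 annotated counts. Grey points are single transcripts, red points passed the edgeR share test and blue points are the other named ones; the dashed line marks equal shares. Kif5b, Actr3 and Hp1bp3 lie above the line, from means of 0.891%, 3.64% and 5.41% in control to 41.5%, 51.7% and 29.5% in PS_high.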

How the data were processed

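HISAT2, StringTie and TopHat are named in the submitters' processing notes, without roles. Their versions, the annotation, the genome build and the strand setting of the counting are not stated in the sources used here. The authors deposited, per transcript and library, an estimated count, in which reads shared by overlapping transcripts are divided, and an FPKM value. All deposited estimated counts were whole numbers. Of 968 microRNA rows found in RefSeq GRCm38.p6, 965 had the same start and end, so coordinates are the table's and sequences are from RefSeq GRCm38.p6. The table of circular RNAs was not used here.

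Rows with a mean of at least 0.5 FPKM were fitted over the whole table with edgeR 4.0.16 (R 4.3.3; quasi-likelihood test, TMM factors, Benjamini-Hochberg, two-sided). The share fit used the log of the gene's summed annotated counts plus 1 as an offset, for genes with at least 2 annotated rows and a mean of at least 50 counts. DESeq2 1.42.0 and limma 3.58.1 were alternatives. Scripts were tested on simulated data, with planted changes of 4-, 16-, 64- and 256-fold. The transcript fit recovered 100% of them at each fold when rows varied little between libraries. At the spread of all rows of each fit, the transcript fit recovered 0% at each fold, and the share fit 0%, 0%, 2% and 16%. Changes were planted in rows of any type, not in retained-intron rows alone. A switch means at least 100 counts in 1 library and 0 in another of the group.

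Transcripts were named by rule: 8 in each direction by size of fold change at an unadjusted p under 0.05 with no overlap and at least 1 FPKM in a group, since none passed; the 8 of highest level; the 8 of highest share and the 5 higher and 5 lower by p of the share fit, with a mean gene count of at least 500; up to 4 per list; the 5 steadiest; and the Actr3 transcript. Some transcripts that met the rule are not reported here. The members, lists and rules were chosen with earlier results of these data known. Other transcripts of a named gene, and those with hairpins, were added after their values were seen. The groups share replicate numbers in the labels, and the main fits did not treat these as pairs (see the closing section). Estimated counts cover no error of read assignment, and intervals at 3 samples per group are wide.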

Additional observations from a re-analysis of the deposited data

How the results depend on the processing

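The count of 0 retained-intron transcripts called by edgeR held under 4 sets of library factors, each filter on low values, annotated rows only, robust dispersions and each left-out library. On data simulated at the spread of all tested rows of the table, the main edgeR fit recovered 0% of planted changes, even at 256-fold. A steady count of 0 is therefore no sign that transcripts were unchanged. DESeq2 called 124, limma on log2(FPKM + 0.1) called 1 and limma on log2(FPKM + 1) called 2. For the share of the gene, 3 calls became 1 with limma on FPKM shares, 1 without the FPKM filter and 0 to 2 without single libraries: 0 without control 1 or control 3, 1 without control 2, PS_high 1 or PS_high 3, and 2 without PS_high 2. Kif5b was the single call of limma, of the fit without the FPKM filter and of those without PS_high 1 or PS_high 3, and Actr3 that without control 2. Without PS_high 2 the calls were Kif5b and a transcript of Ercc3 that was not among the 3; it held 1150, 1182 and 1398 counts in controls and 0, 1011 and 0 in PS_high. The calls stood at 3 with all rows as denominator and with genes of at least 500 counts. In Actr3 and Hp1bp3 the assembled rows held 0 counts in every library, so the denominator of all rows was unchanged there and is no check on them. With all rows as denominator, the Arhgap29 share turned to 0.05 on the log2 scale; counts on assembled rows enter that denominator. The difference in the class's percent of counts, -0.24, ran from -0.596 to 0.009 without single libraries and changed sign only without PS_high 3. The difference in transcripts detected kept its sign in every alternative run, from -507.2 to -46.7 without single libraries.

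With the replicate number as a block, the share fit called 0 (449 at an unadjusted p under 0.05) and the transcript fit 0 (314). Deviations of same-numbered samples correlated by 0.027, 0.008 and 0.008, and those of samples with different numbers by -0.023 to 0.015. All lie near 0, which does not settle whether the numbers pair the samples. The block left the class difference at -0.24 (exact sign-flip permutation p = 0.75) and that in number detected at -290.3 (p = 0.25, the smallest 3 pairs allow).

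Of the 21847, 11142 lay under 0.5 FPKM and were left out of the test. With no filter, 19785 were tested and 0 called.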
